A study of Rattus norvegicus with 6 samples.

Results

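The 6 LncRNAs described here were measured, by 1 probe each, in rat bone marrow mesenchymal stem cells (BMSCs): RGD1566307, LOC103691629, LOC103691626, LOC103690546, LOC103691977 and LOC100912312. They are 6 of the 10313 probes that the array carries for LncRNAs, among 38733 probes with a value on every array. They were chosen by their difference between hypoxia and normoxia on these same arrays, as LncRNAs of the study's heatmap that were raised on each hypoxia array, here by more than 2-fold over the normoxia mean. Their differences between the conditions are therefore given as a description, with no p-value. Where limma calls are counted below, the count among the 6 follows from that choice, and nothing is read from it. BMSCs are adherent stromal cells of the marrow that can form bone, cartilage and fat. Here they came from the bone marrow of Sprague-Dawley rats, and the labels name no genetic change in either group. The normoxia group (3 samples) was kept in 20% oxygen and the hypoxia group (3 samples) in a gas mixture with 0% oxygen, both for 48 h. The comparison asks which transcripts differ when BMSCs are kept without oxygen, as in necrotic bone. The series describes the samples as biological replicates, and the animals behind each sample are not given in the sources used here.

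A LncRNA is a long transcript that is not known to be translated, and many act on the gene beside them or by binding proteins or microRNAs. Names that start with RGD or LOC are placeholders for genes with no established function, so that little is known of what most of these genes do. In low oxygen, cells stabilise hypoxia-inducible factor (HIF), a transcription factor that binds short DNA cores beside genes for glycolysis, blood vessel growth and iron handling. HIF is known to raise some LncRNAs as well.

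Each array is single-colour, so that the brightness of a spot rises with the amount of labelled RNA bound to it. Median probe intensity was between 26.1 and 57.2 scanner units, 74.4% to 85.8% of the probes were detected on an array, and 0 spots were saturated. The arrays were read in 2 scans. The normoxia arrays and hypoxia replicate 1 were in scan 1, and hypoxia replicates 2 and 3 were in scan 2, where the median local background was 22 and 22.5 against 14 to 16 in scan 1. Values on the log2 scale below are quantile-normalized, which gives all arrays the same distribution of values. A step of 1 on this scale is 2-fold. Of the 6246 LncRNA probes detected on at least 3 of the 6 arrays, limma called 29 upregulated and 76 downregulated (adjusted p under 0.05 and over 2-fold). The upregulated share of the LncRNA probes tested was 0.464%, and all 6 of the chosen LncRNAs were within it. Since the same contrast chose them, nothing is read from that count. Scaling the arrays by their 75th percentiles instead gave other counts, in which 355 LncRNA probes were upregulated and 68 downregulated, and the median difference of all LncRNA probes moved from 0.16 to 0.49. With the scan alone as a block, the hypoxia term of the fit rests on hypoxia replicate 1, and the differences of the 6 LncRNAs were 1.65 to 4.74 on the log2 scale. When both the scan and the replicate number entered the limma model as blocks, a fit chosen after seeing the data that leaves 1 residual degree of freedom, it called 0 LncRNA probes, against 566 higher and 562 lower at an unadjusted p under 0.05. The differences of the 6 LncRNAs in that fit were 1.82 to 4.71 on the log2 scale.

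All 6 LncRNAs were detected on all 6 arrays, and each had 1 spot per array. The difference between hypoxia and normoxia ranged from 1.67 to 4.25 on the log2 scale, with a median of 2.03, against a median of 0.16 over all LncRNA probes tested. On every hypoxia array each of them lay more than 2-fold above its normoxia mean, which 0.32% of the LncRNA probes tested did. These were 20 probes, against 72 after 75th-percentile scaling and 4 with normexp, with 2 of the 6 LncRNAs among those 4. All 3 hypoxia arrays lay above all 3 normoxia arrays for 6 of 6, and for 17.9% of the LncRNA probes tested (31.0% after 75th-percentile scaling). Both properties follow from how the LncRNAs were chosen. The member nearest to the 2-fold limit was LOC103691977, whose lowest hypoxia array was 1.24 above the normoxia mean. Just outside it among the raised LncRNAs of the heatmap was LOC102546476, whose lowest hypoxia array was 0.82 above.

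**Figure D1:**
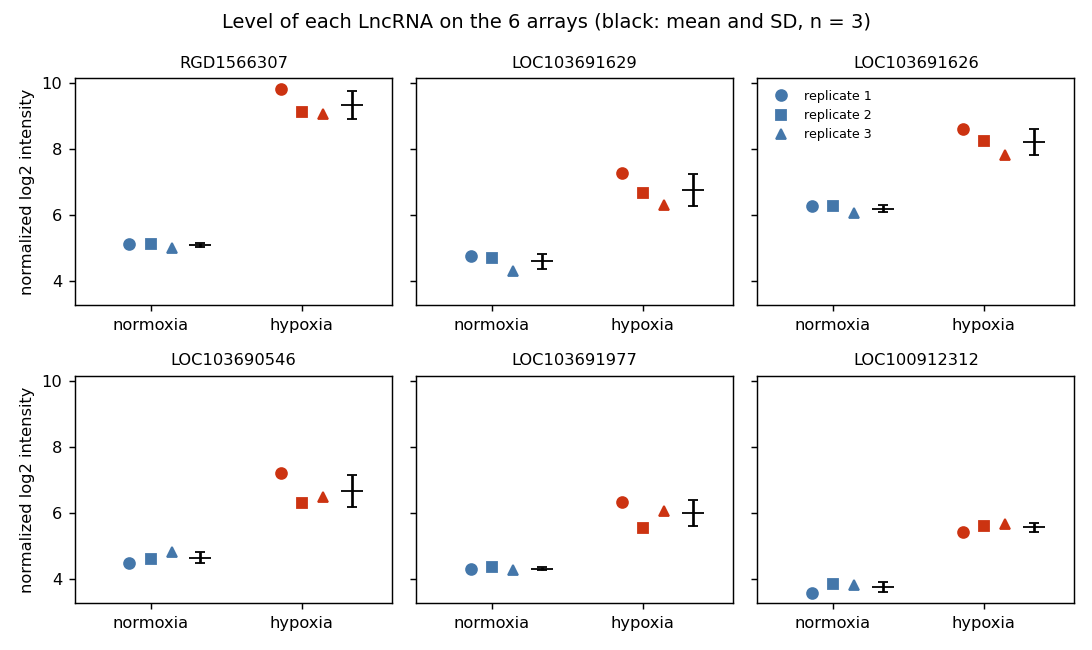
Normalized log2 intensity of each LncRNA on the 3 normoxia arrays (blue) and the 3 hypoxia arrays (red), with the mean and SD of each group in black (n = 3). In each panel the groups do not overlap, and the smallest gap between the lowest hypoxia and the highest normoxia array is 1.18, for LOC103691977.

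RGD1566307 had the largest difference. Its normalized log2 value was 5.12, 5.13 and 5.02 in normoxia replicates 1 to 3, against 9.83, 9.14 and 9.06 in hypoxia replicates 1 to 3. The normoxia arrays were nearly level, while hypoxia replicate 1 was above the other hypoxia arrays. The mean went from 5.09 ± 0.06 (SD, n = 3) under normoxia to 9.34 ± 0.43 (SD, n = 3) under hypoxia, a difference of 4.25 on the log2 scale or 19.1-fold. With normexp, limma's model-based background correction, run here on spot medians, it was 2.91 or 7.54-fold. Before normalization between arrays the intensity of its spot was 37.4, 32.0 and 22.6 under normoxia, against 736, 661 and 511 under hypoxia. This intensity, from which the background had already been taken, was 1.74 to 2.91 times the local background on the normoxia arrays and 25.6 to 56.6 times on the hypoxia arrays. The uncorrected spot median under normoxia was 52, 48.5 and 38, over a local background of 15.5, 11 and 13. Among the 6246 LncRNA probes tested it ranked 1 by the mean difference, 1 in hypoxia replicate 1 and 1 in the mean of hypoxia replicates 2 and 3. Relative to the normoxia mean it was 26.8-fold, 16.6-fold and 15.6-fold higher on hypoxia arrays 1 to 3. That range, 3.97 to 4.74 on the log2 scale, did not overlap the range of any of the other 5 LncRNAs, which lay between 1.24 and 2.68.

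LOC103691629 and LOC103691626 had like profiles. The normalized log2 value of LOC103691629 was 4.75, 4.72 and 4.32 in normoxia replicates 1 to 3, against 7.28, 6.67 and 6.31 in hypoxia replicates 1 to 3. For LOC103691626 it was 6.27, 6.26 and 6.07 under normoxia, against 8.61, 8.25 and 7.82 under hypoxia. In both, hypoxia replicate 1 was the highest array and hypoxia replicate 3 the lowest of the hypoxia arrays. The difference was 2.16 on the log2 scale (4.46-fold) for LOC103691629, from 4.60 ± 0.24 (SD, n = 3) to 6.76 ± 0.49 (SD, n = 3). It was 2.03 (4.08-fold) for LOC103691626, from 6.20 ± 0.12 (SD, n = 3) to 8.23 ± 0.40 (SD, n = 3). With normexp these differences were 0.99 (1.99-fold) and 1.43 (2.69-fold). Set relative to their own normoxia means, the 6 values of these probes differed by a root mean square of 0.138, the smallest among the 15 pairs of the 6 LncRNAs, the next being 0.252. Among all probes tested, LOC103691626 was the nearest to LOC103691629 by this measure. Whether either probe also binds the transcript of the other gene was not tested.

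In RefSeq's rat annotation (assembly GRCr8), the gene number in the name LOC103691629 belongs to Lce1fl1, which is annotated as protein-coding with 1 transcript on chromosome 2. Lce genes encode late cornified envelope proteins, small structural proteins of the outer layer of the skin. Its neighbours on the 2 sides are the protein-coding genes LOC102552128 and LOC102549828, and Lce1f lies next beyond the first, all on the same minus strand. The probe series that this array gives to LncRNAs therefore holds a gene that this annotation lists as coding. The intensity of its spot was 28.3, 23.7 and 13.5 on normoxia arrays 1 to 3, a corrected signal of 1.04 to 1.98 times the local background, and 118, 141 and 93.5 on hypoxia arrays 1 to 3. For LOC103691626, which had the highest corrected signal over background of the group under normoxia, the intensity was 88.6, 73.8 and 48.6 under normoxia, against 307, 379 and 238 under hypoxia. On this scale hypoxia replicate 2, not replicate 1, was the highest array for both.

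The promoter window of LOC103691629, from 250 bases before to 50 bases after the gene start (GRCr8, chr2:181040764-181041063, minus strand), is shown 5′ to 3′ because the table of promoters holds it for 3 of the 6 LncRNAs. Capitals mark TATAAA and CCAAT on either strand.
LOC103691629 promoter: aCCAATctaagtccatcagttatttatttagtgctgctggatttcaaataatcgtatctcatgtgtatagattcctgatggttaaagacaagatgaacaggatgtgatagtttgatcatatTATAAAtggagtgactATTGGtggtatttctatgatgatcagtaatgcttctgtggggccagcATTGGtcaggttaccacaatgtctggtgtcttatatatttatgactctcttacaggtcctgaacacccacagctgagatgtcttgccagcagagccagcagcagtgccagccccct
This window holds TATAAA once, 129 bases before the start, and CCAAT at 3 places, 249, 113 and 66 bases before it. Its GC content was 41.3%, and 14.8% of the 33469 promoter windows of the same length had a lower one.

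LOC103690546 was measured at a normalized log2 value of 4.49, 4.61 and 4.82 in normoxia replicates 1 to 3, against 7.22, 6.31 and 6.48 in hypoxia replicates 1 to 3. Hypoxia replicate 1 stood above the other hypoxia arrays by 0.83 over their mean, the largest such step among the 6 LncRNAs. The mean went from 4.64 ± 0.17 (SD, n = 3) under normoxia to 6.67 ± 0.49 (SD, n = 3) under hypoxia, a difference of 2.03 or 4.09-fold. With normexp it was 0.88 or 1.84-fold. Before normalization that step was 0.08, the intensity being 114, 111 and 104 on hypoxia arrays 1 to 3, against 23.3, 21.9 and 19.5 on normoxia arrays 1 to 3. The corrected normoxia intensity was 1.63 to 1.69 times the local background, and the uncorrected spot median was 43, 37 and 34.5 over a background of 14, 13 and 12.

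LOC103691977 had a normalized log2 value of 4.29, 4.38 and 4.28 in normoxia replicates 1 to 3, against 6.33, 5.56 and 6.06 in hypoxia replicates 1 to 3. The normoxia arrays were close to one another, and hypoxia replicate 2 was the lowest hypoxia array. The difference was 1.67 (3.18-fold), from 4.31 ± 0.05 (SD, n = 3) to 5.98 ± 0.39 (SD, n = 3), the smallest of the 6. With normexp it was 0.74 or 1.67-fold. The intensity was 19.99, 18.4 and 13.1 under normoxia, against 60.4, 70.6 and 80.7 under hypoxia, so that without normalization hypoxia replicate 1 was the lowest hypoxia array. On normoxia array 3 the corrected intensity was 0.967 times the local background, where the uncorrected spot median was 27 over a background of 13.5.

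RefSeq annotates LOC103691977 as a LncRNA gene with 2 transcripts on chromosome 3, and its span overlaps that of Tshz2, a gene for a zinc finger transcription factor of the teashirt family. The neighbour on the other side is another LncRNA gene, LOC134486316, on the opposite strand. Tshz2 was not matched to a probe, and whether the probe of LOC103691977 also binds Tshz2 RNA was not tested. The window around the start of LOC103691977 (GRCr8, chr3:178825074-178825373, minus strand) is shown with GGGCGG, a GC box that binds Sp family factors, in capitals on either strand.
LOC103691977 promoter: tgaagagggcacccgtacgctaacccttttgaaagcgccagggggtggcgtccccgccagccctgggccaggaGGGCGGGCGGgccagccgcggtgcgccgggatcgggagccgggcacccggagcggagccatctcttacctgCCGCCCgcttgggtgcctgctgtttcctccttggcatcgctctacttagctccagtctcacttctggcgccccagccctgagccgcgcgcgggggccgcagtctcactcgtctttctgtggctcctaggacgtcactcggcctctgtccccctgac
GGGCGG was found at 3 places, 177, 173 and 106 bases before the start, of which the first 2 overlap. The window held 27 CG pairs, and 86.1% of the 33469 windows held fewer. Its GC content was 69.3%, and 90.9% of the windows had a lower one.

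LOC100912312 had the lowest corrected signal over background of the 6 under normoxia. Its normalized log2 value was 3.59, 3.85 and 3.83 in normoxia replicates 1 to 3, against 5.41, 5.60 and 5.68 in hypoxia replicates 1 to 3. After quantile normalization it was the only one of the 6 in which hypoxia replicate 1 was the lowest hypoxia array, and its hypoxia arrays were the closest together. With no normalization between arrays its hypoxia SD, 0.67, was the widest of the 6, and hypoxia replicate 1 was lowest for LOC103691977 too. The values that follow are again quantile-normalized. The mean went from 3.75 ± 0.15 (SD, n = 3) under normoxia to 5.56 ± 0.14 (SD, n = 3) under hypoxia, a difference of 1.81 or 3.51-fold. With normexp it was 0.55 or 1.47-fold, the smallest of the 6 in that setting. A hypoxia SD smaller than this was found for 10.7% of the LncRNA probes tested, against 49.6% to 63.1% for the other 5 LncRNAs, where the median hypoxia SD of all LncRNA probes tested was 0.40. The intensity was 11.7, 12.6 and 9.40 on normoxia arrays 1 to 3, after correction, each under the local background of 14, 14 and 13.5, where the uncorrected spot median was 27, 28 and 25. It was 30.9, 72.7 and 64.2 on hypoxia arrays 1 to 3, where the local background was 15, 23 and 23. Although all 6 spots passed the detection flags, the size of this difference rests on corrected normoxia signals smaller than the local background.

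RefSeq annotates LOC100912312 as a LncRNA gene with 1 transcript on the minus strand of chromosome 2. Its span overlaps that of Dennd2d, which lies on the plus strand and encodes a protein with a DENN domain, a domain that activates Rab GTPases. Cept1, an enzyme gene of phospholipid synthesis, follows. The sources used here do not say which strand the labelling kept, and whether the probe also binds Dennd2d RNA was not tested. The window around the gene start (GRCr8, chr2:196663674-196663973, minus strand) is shown with CCAAT on either strand in capitals.
LOC100912312 promoter: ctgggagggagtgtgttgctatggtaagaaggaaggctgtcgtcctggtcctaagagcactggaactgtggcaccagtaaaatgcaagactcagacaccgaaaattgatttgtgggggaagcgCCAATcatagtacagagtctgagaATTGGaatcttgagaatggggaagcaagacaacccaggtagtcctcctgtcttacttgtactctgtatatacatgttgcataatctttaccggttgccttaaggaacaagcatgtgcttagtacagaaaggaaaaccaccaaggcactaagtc
CCAAT was found at 2 places, 127 and 103 bases before the start. The GC content was 46.0%, below the median of 51.7% over all windows.

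The letters ACGTG and GCGTG, the cores that HIF binds, were searched on both strands in the same windows. Neither was found in any of the 3 windows, while 41.6% of the 33469 windows of this length held at least 1 of them (ACGTG in 19.3% and GCGTG in 29.7%). Of the other motifs, TATAAA was in 1 of the 3 windows and in 14.2% of all, CCAAT in 2 of 3 and in 37.5% of all, and GGGCGG in 1 of 3 and in 33.1% of all. A match says only that these letters stand in the window, and a window with no match says nothing about the factor elsewhere. RGD1566307, LOC103691626 and LOC103690546 are named only.

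**Figure D2:**
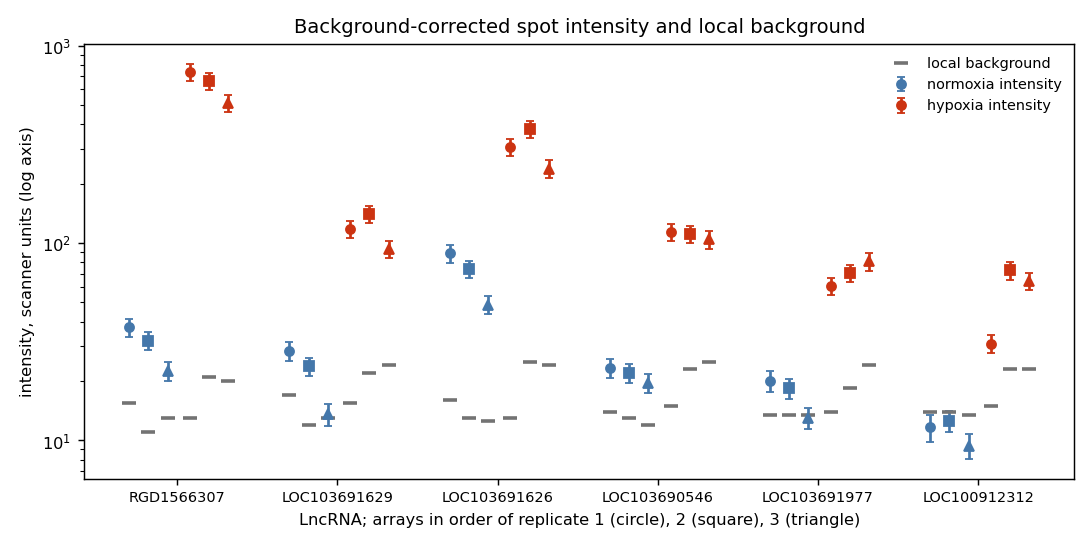
Background-corrected intensity of the spot of each LncRNA on the normoxia (blue) and hypoxia (red) arrays, with the error that the scanner software gives, and the local background around the spot (grey dashes), on a log axis. Of the 18 corrected normoxia intensities, 4 lie under the local background, 3 of them of LOC100912312, and the 18 corrected hypoxia intensities lie at 2.06 to 56.6 times it.

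How much of each difference could be seen within scan 1 was read from hypoxia replicate 1 against the 3 normoxia arrays. In that scan RGD1566307 was higher by 4.74 on the log2 scale, LOC103691629 by 2.68, LOC103690546 by 2.58, LOC103691626 by 2.41, LOC103691977 by 2.02 and LOC100912312 by 1.65. These values rest on a single hypoxia array. The mean of hypoxia replicates 2 and 3, which were in the other scan, was higher than normoxia by 4.01 for RGD1566307, 1.89 for LOC103691629, 1.84 for LOC103691626, 1.75 for LOC103690546, 1.5 for LOC103691977 and 1.89 for LOC100912312. For 5 of the 6 the difference within scan 1 was the larger one, LOC100912312 being the exception. This step between the scans depended on the normalization. With no normalization between arrays, hypoxia replicate 1 was 0.34 above the mean of the other hypoxia arrays for RGD1566307 and 0.03 to 0.08 above it for LOC103691629, LOC103691626 and LOC103690546, while the step was -0.32 for LOC103691977 and -1.14 for LOC100912312. Apart from RGD1566307, the ranges of the hypoxia arrays overlapped between all of the LncRNAs, so that the order among the other 5 did not stand out from the spread between arrays.

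The 9 other LncRNAs that the heatmap shows as higher under hypoxia were taken for comparison. They were chosen on the same arrays, so that no test was made. All 3 hypoxia arrays lay above all 3 normoxia arrays for these 9 as well, after quantile normalization and after 75th-percentile scaling, and for 6 of the 9 with no normalization between arrays. They differed in the 2-fold limit. Of the 9, 7 lay under 2-fold in hypoxia replicate 1, at 0.50 to 0.82 on the log2 scale, and at 2.07 to 3.22 in the mean of hypoxia replicates 2 and 3. LOC102546476 was at 0.82, 3.21 and 3.23 above its normoxia mean on hypoxia arrays 1 to 3, and LOC102551409 at 0.50, 2.52 and 2.26. The remaining pair, Trnp1 and LOC102555870, were over 2-fold on every hypoxia array, as the 6 LncRNAs were. Trnp1, whose gene encodes a nuclear protein, was at 1.78, 1.68 and 1.56. LOC102555870 was at 2.67, 1.37 and 1.45, but its probe was detected on 3 arrays, none of them normoxia, so that its normoxia values were not well above background. With no normalization between arrays it was at 2.60, 2.55 and 2.44, so that hypoxia replicate 1 did not stand out.

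Of the 6246 LncRNA probes tested, 20 were over 2-fold above the normoxia mean on every hypoxia array. They were the 6 LncRNAs, Trnp1, LOC102555870 and 12 probes that are not in the heatmap and for which no gene name was found here. Of these 12, 4 were detected on all 6 arrays and 3 were not detected on any normoxia array.

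**Figure D3:**
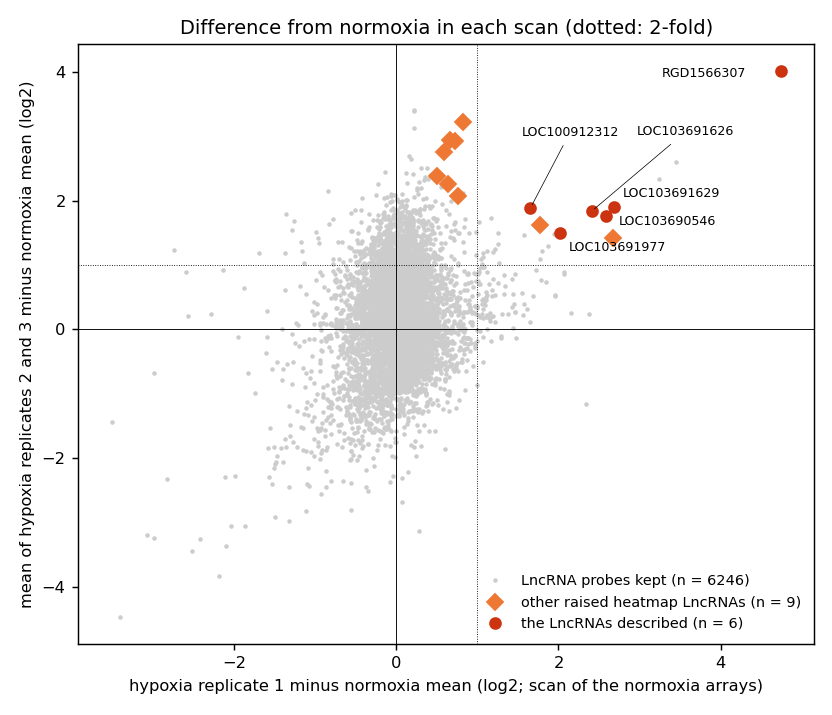
Difference from the normoxia mean in hypoxia replicate 1 (x axis, scan 1) and in the mean of hypoxia replicates 2 and 3 (y axis, scan 2) on the log2 scale, for the 6 LncRNAs (red), the 9 other raised LncRNAs of the heatmap (orange) and the 6246 LncRNA probes tested (grey). The 6 LncRNAs lie right of the dotted 2-fold line at 1.65 or more, and 7 of the 9 others lie left of it at 0.82 or less.

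The probes with the profile most like each LncRNA were found by the root mean square difference of the 6 log2 values, each probe set relative to its own normoxia mean, among the 30451 probes detected on at least 3 arrays. For LOC103691626 the nearest was Prg4, which encodes lubricin, the lubricant of joint surfaces, at 0.0854, and next was Gna14, a G protein subunit, at 0.129. Prg4 was 2.50, 1.89 and 1.71 above its normoxia mean on hypoxia arrays 1 to 3, where LOC103691626 was 2.41, 2.05 and 1.62 above. Prg4 was also the next nearest to LOC103691629, at 0.139. For LOC103690546 the nearest named probe was Btc, the growth factor betacellulin, at 0.118, and it was 2.66, 1.77 and 1.75 above its normoxia mean. For LOC103691977 it was Ppp2r2b, a regulatory subunit of a protein phosphatase, at 0.179, and for LOC100912312 it was Trnp1 at 0.183. RGD1566307 had few probes near it. The nearest, ASRN6AP1B103802440V3, for which no gene name was found here, was at 0.171, and the nearest named one, Trhde, an enzyme that breaks down thyrotropin-releasing hormone, was at 0.814. Among so many probes, near profiles of 6 values can arise without any relation between the genes. Few probes had a name, 63 from values that the study lists for genes it had chosen and 30 by accession. A nearest named probe therefore need not be the nearest known gene.

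The direction of every difference above is that of the sample labels, and the study's qPCR measurements under hypoxia were not analysed here. Of 14 genes listed as known to respond to oxygen, 3 had a named probe. The list was chosen with earlier results of these data known, so that the p-values given for Ldha are descriptive. Ldha, the lactate dehydrogenase subunit whose gene HIF is known to raise, was at 12.102, 12.17 and 12.04 in normoxia replicates 1 to 3, against 11.02, 10.72 and 10.85 in hypoxia replicates 1 to 3, so that it was 2.36-fold lower under hypoxia (limma adjusted p = 0.0287). It was lower in all 18 alternatives, with log2 differences from -1.48 to -1.08 against -1.24, and the call held in 14 of them, with adjusted p from 0.000238 to 0.246. The call was lost with the methods' paired t-test (-1.24, adjusted p = 0.246), with scan and replicate number both as blocks in limma (-1.08, adjusted p = 0.09), without both arrays of replicate 2 (-1.13, adjusted p = 0.0891) and with no detection filter (-1.24, adjusted p = 0.071). Kdm4b, a histone demethylase that HIF is also known to raise, differed from its normoxia mean by -2.42, -2.13 and -1.36 on the log2 scale on hypoxia arrays 1 to 3. Id2, an inhibitor of differentiation factors, differed by -1.87, -2.73 and -2.86. Kdm4b and Id2 were named by matching values that the study lists for genes it had chosen, so that their values are a description. The listed values match these arrays, while the paper describes its mRNA clustering as one of BMSCs overexpressing a LncRNA. That difference between the sources was not resolved here. All 3 were lower under each of the 5 ways of normalizing that were run.

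Of 9 listed markers of macrophages, which can adhere with BMSCs in marrow cultures, 2 had a named probe, and both were lower under hypoxia. C1qa, a complement component made by macrophages, was at 10.01, 9.57 and 9.99 under normoxia, against 7.91, 7.89 and 7.80 under hypoxia. Gpr34, a receptor of macrophages and microglia, was at 6.27, 6.0 and 6.25 under normoxia, against 4.30, 3.67 and 3.83 under hypoxia. Their summed normalized intensity was 822 to 1106 on the normoxia arrays and 237 to 261 on the hypoxia arrays, and neither was at 0. Both were named from the same listed values, of genes that the study had chosen, so that they do not stand for the markers without a name. Their part in the result was not tested. In RNA from a whole culture, fewer cells of a type and less RNA per cell cannot be told apart. None of the 8 listed BMSC markers and none of the 3 endothelial ones was matched to a probe, so that the labelled cell type was not checked on these arrays. The study did check its BMSCs by flow cytometry, including for the leukocyte antigens CD11b and CD45, and those measurements were not analysed here.

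**Figure D4:**
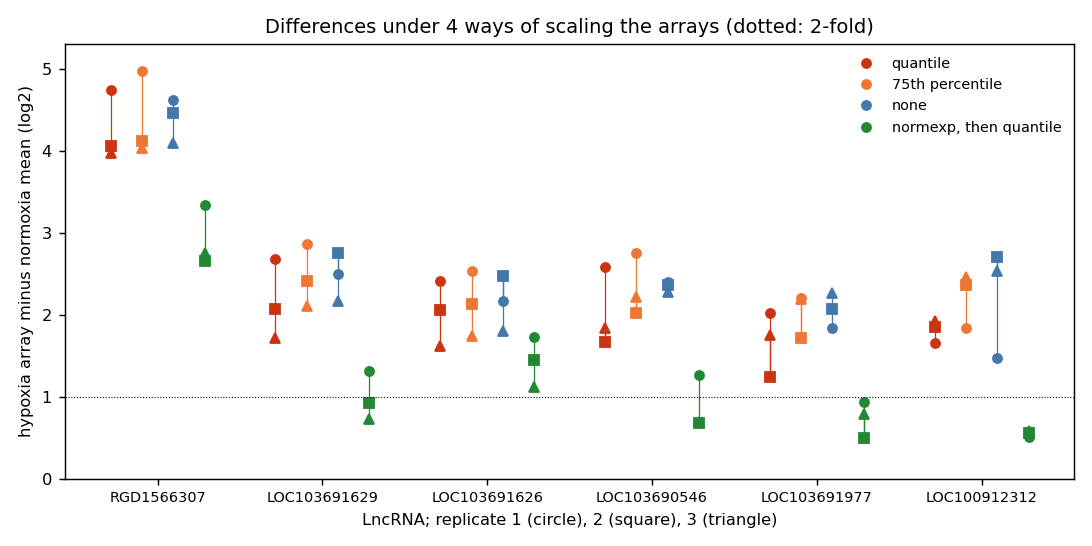
Difference of each hypoxia array from the normoxia mean on the log2 scale under quantile normalization (red), 75th-percentile scaling (orange), no normalization between arrays (blue) and normexp background correction with quantile normalization (green). All points lie above 0, and under normexp only RGD1566307 and LOC103691626 have all 3 arrays above the dotted 2-fold line.

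The scaling changed the sizes and the order of the hypoxia arrays. The median difference of the 6 LncRNAs was 2.27 after 75th-percentile scaling and 2.29 with no normalization, where the median over all LncRNA probes tested was 0.49 and 0.51. It was 0.93 with normexp, which was run on spot medians with an offset of 50. Hypoxia replicate 1 was above the mean of hypoxia replicates 2 and 3 for 5 of the 6 after quantile normalization and for 4 of the 6 without it. LOC100912312 moved most between arrays without normalization, being 1.47, 2.71 and 2.53 above the normoxia mean on hypoxia arrays 1 to 3. The groups did not overlap for 6 of 6 under each of these scalings, the smallest gap being 0.46 with normexp. Of the LncRNA probes tested, 31.0% did so after 75th-percentile scaling and 16.6% with normexp. The share with no normalization between arrays was not computed.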

How the data were processed

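RNA from 3 normoxia and 3 hypoxia BMSC samples was measured on single-colour Agilent arrays. The authors deposited, for each array, background-corrected intensity values from Agilent Feature Extraction 11.0.1.1, not normalized between arrays, and a table of log2 values that the methods describe as quantile-normalized in GeneSpring. From the intensity values, controls and outliers among the spots were dropped, replicate spots of a probe were averaged on the log2 scale, and 38733 of 38804 probes were quantile-normalized in R 4.3.3. Probes detected on at least 3 of 6 arrays (30451, of them 6246 of LncRNAs) were compared with limma 3.58.1, the replicate number as a block as the methods name a paired test, with Benjamini-Hochberg adjustment over all of them. A probe was called at an adjusted p under 0.05 and over 2-fold. The fits were tested on simulated data.

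The array files name few probes. The 6 LncRNAs were named by matching the log2 values that the study's supplementary data list for each gene to the deposited log2 table. They matched within 5e-06, with every other probe at least 0.248 away. In this way 63 probes were named, the 6 LncRNAs among them. A further 30 probes were named by accession through RefSeq, and LncRNA probes were classed by the start of the probe name. Promoter windows are from RefSeq, assembly GRCr8, in which 3 of the 6 LncRNAs were matched. The array design's header names another build, so no position of a probe is given.

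The genes named are the 6 LncRNAs, the 9 other raised LncRNAs of the heatmap, the 2 nearest probes of each LncRNA and its nearest named one, RefSeq neighbours, and genes of the lists given. The 6 LncRNAs and the lists were chosen with earlier results of these data known. Alternatives were 75th-percentile scaling, no normalization, normexp with an offset of 50 on spot medians, the deposited log2 table, other detection filters, no replicate block, the scan as a block, the methods' paired t-test, and leaving out single arrays or all arrays of a replicate number. Precision is limited by the number of arrays.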

Additional observations from a re-analysis of the deposited data

How the results depend on the processing

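The difference of each of the 6 LncRNAs was above 0 in all 84 values from 14 alternatives, between 0.55 and 4.74 on the log2 scale, and 68 of them moved by less than 1 SD between arrays. Their median, 2.03, was 0.93 with normexp and 2.50 with hypoxia replicate 1 alone against normoxia. The number past the limma threshold, 6, was 2 with normexp and 4 with no detection filter. It was 0 with the methods' paired t-test after adjustment, against 6 without adjustment. It was also 0 when scan and replicate number were both blocks, a fit with 1 residual degree of freedom and differences of 1.82 to 4.71. With the scan alone as a block, where the hypoxia term rests on hypoxia replicate 1, the differences were 1.65 to 4.74. The fit with both blocks, and counting the 6 LncRNAs under each of these settings, were chosen after seeing the data. As the same contrast chose the 6 LncRNAs, nothing is read from these counts. Those over 2-fold on every hypoxia array, 6, were 2 with normexp.

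The counts of LncRNA probes moved more. The 29 upregulated ones were 355 with 75th-percentile scaling, 9 with normexp, 7 with no detection filter, 76 with the scan as a block, 0 when scan and replicate number were both blocks, and 0 with the methods' paired t-test adjusted, against 37 unadjusted. Leaving out arrays gave 15 to 906. Without both arrays of replicate 1, 2 or 3, with the replicate block kept, the count was 906, 76 and 78. Fits without a single array had no replicate block, a model that gave 41 with all arrays. In these fits the count was 858 without hypoxia replicate 1, and 19, 17 and 15 without normoxia replicate 1, 2 or 3. With hypoxia replicate 1 left out, all hypoxia arrays were in scan 2 and all normoxia arrays in scan 1. Condition and scan cannot be told apart in the fits that gave 906 and 858. The 20 over 2-fold on every hypoxia array were 72 with 75th-percentile scaling, 4 with normexp, 72 with no detection filter and 11 when detection on all 6 arrays was asked. The setting with normexp changed the signal column (spot medians), the background correction and the offset together, and which of these moved the counts was not tested. The filters change how many probes are tested, and for the others the cause was not tested.

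Without the replicate block 41 LncRNA probes were upregulated. For replicates 1 to 3, the deviations from the group means correlated at -0.193, -0.064 and -0.089 between samples with the same number. Hypoxia replicate 1 was read in another scan than the other hypoxia arrays, so that the hypoxia deviations also hold any step between scans. These correlations therefore cannot decide whether the samples were paired. The replicate block rests on the number alone and on the paired test that the methods name. Signal over background limits the normoxia values of LOC100912312 most.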

Other observations

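The array has a probe, ASRNV20031567V3, whose number lies between those of LOC103691626 and LOC103691629. It was chosen after its values were seen, no gene name was found for it here, and the numbers need not follow the genome. Its normalized log2 value was 4.31, 4.16 and 3.99 in normoxia replicates 1 to 3, against 4.22, 4.92 and 4.74 in hypoxia replicates 1 to 3. Hypoxia replicate 1 was thus 0.07 above the normoxia mean, within the normoxia arrays, where both of the numbered neighbours were over 2-fold above theirs.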
